A study of Homo sapiens with 6 samples.

Results

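Receptor tyrosine kinases were examined in cells labelled MG63, a human osteosarcoma line, after knockdown of FUBP1, the far upstream element-binding protein, a DNA- and RNA-binding regulator of transcription. The 52 receptors were the protein-coding rows of the deposited gene table that carried the symbols of a list of receptor tyrosine kinases, out of 19951 protein-coding genes and 58735 genes in all. Poly-A RNA was sequenced from 3 samples transfected with a negative control siRNA (siMock) and 3 samples transfected with siRNA against FUBP1 (siFUBP1). No drug or other agent differed between the groups, and all samples carry the label of 1 line. The total count per sample lay between 16309900 and 17484313, so that a floor of 3 counts corresponded to between 0.172 and 0.192 CPM (counts scaled to library size). The study states in general that its experiments were repeated, but neither the labels nor its sequencing methods say whether these replicates were separate cultures, so p-values measure the spread between these 6 samples, which may be technical.

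Receptor tyrosine kinases are typically single-pass membrane proteins that bind growth factors, collagens or ligands on neighbouring cells, pair with another receptor and phosphorylate tyrosines on their own tails. Adaptors such as GRB2 and SHC1 dock on these tyrosines and pass the signal to RAS and ERK, to PI3K and AKT, and to phospholipase C. Inhibitors that are themselves switched on by ERK, such as the Sprouty proteins and the dual-specificity phosphatases, then dampen the signal. In bone and in osteosarcoma, receptors for PDGF, FGF, HGF and the EGF family are among the best known members.

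The knockdown and the cell type were checked first. FUBP1 had 3872, 4331 and 4282 counts in the siMock samples and 749, 752 and 926 in the siFUBP1 samples, a log2 fold change of -2.44 (SE 0.0895, edgeR quasi-likelihood test, adjusted p = 1.90e-17). The labels call the cells osteosarcoma, but several osteoblast and mesenchymal markers were missing, which goes against the label and leaves the identity of the line in doubt. COL1A2, IBSP and POSTN, which encode a collagen chain and matrix proteins of bone and its covering, had 0 counts in every sample, and 7 of 12 such markers had at most 10 counts in every sample, the alkaline phosphatase ALPL and the bone transcription factor SP7 among them. VIM, the mesenchymal intermediate filament, was the most abundant marker of this list, and COL1A1 had between 1692 and 2000 counts in the siMock samples and between 769 and 792 after knockdown. Other members of the list went up. RUNX2, the master regulator of the osteoblast lineage, had 8, 8 and 6 counts in siMock and 73, 97 and 39 in siFUBP1 (log2 fold change 3.15, adjusted p = 4.53e-08), and the bone matrix genes SPP1 (1, 2 and 1 against 22, 7 and 20 counts) and BGLAP (3, 4 and 2 against 10, 8 and 13 counts) did not overlap between groups but were too low to be tested. KRT8 and KRT18, the keratins of simple epithelia, were abundant, whereas CDH1, the epithelial cadherin, had at most 22 counts. The 5 epithelial markers summed to 2901, 2670 and 2528 CPM in siMock and to 1469, 1367 and 1497 CPM in siFUBP1. KRT8 was the most abundant of these 5 markers, with means of 1989 CPM in siMock and 993 CPM in siFUBP1. With KRT18 (means of 705 and 446 CPM) it made up nearly all of these sums. Both keratins fell (adjusted p = 2.01e-10 and 6.02e-08). EPCAM and CDH1 passed no threshold, with log2 fold changes of 0.19 and -0.17 (adjusted p = 0.413 and 0.749). KRT19 was too low to be tested. The 5 endothelial markers summed to 34.6, 34.1 and 28.6 CPM in siMock and to 75.3, 88.2 and 63.8 CPM in siFUBP1. ESAM, an adhesion molecule, made up most of that sum and rose (log2 fold change 1.40, adjusted p = 1.18e-10), while the other four markers had lower means in siFUBP1. Of these, CDH5 had 49, 64 and 42 counts in siMock and 29, 36 and 46 in siFUBP1 (adjusted p = 0.0597), and PECAM1, with 11, 10 and 7 counts against 1, 0 and 1, CLDN5 and VWF were too low to be tested. Haematopoietic markers stayed at or below 1.3 summed CPM. The 5 neural markers, led by SNAP25, summed to 23.0, 17.3 and 17.3 CPM in siMock and to 19.9, 21.7 and 21.4 CPM in siFUBP1. SYT1, a synaptic vesicle protein, was the one called, with 23, 19 and 7 counts in siMock and 28, 50 and 47 in siFUBP1 (log2 fold change 1.27, adjusted p = 0.00336). The part of these marker differences in the receptor values was not tested. In bulk RNA, fewer cells of a type and less RNA per cell cannot be told apart.

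Of the 52 receptors, 25 had enough counts to be tested. A further 9 had 0 counts in every sample, which were ERBB4, PDGFRA, FLT1, FLT3, MUSK, NTRK3, EPHA6, EPHA7 and EPHB6. The other 18 were counted at trace levels, with no more than 13 counts in any sample, reached by FGFR2. All 3 VEGF receptors, both angiopoietin receptors and both neurotrophin receptors belonged to these untested groups, as did KIT, RET, ALK, ROS1 and MERTK. In full, the VEGF receptors were FLT1, KDR and FLT4, the angiopoietin receptors TEK and TIE1, and the neurotrophin receptors NTRK2 and NTRK3, and the remaining trace members were the ephrin receptors EPHA1, EPHA3, EPHA4, EPHA5, EPHA8, EPHB1 and EPHB3. EPHA4 had 1, 7 and 3 counts in siMock and 1, 0 and 0 in siFUBP1. These counts only limit how much RNA could have been present at this depth.

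To compare levels between genes, counts were scaled by gene length in kilobases and by library size (RPKM). In siMock, EPHA2 had the highest level of the receptors, at 48.9 ± 1.3 RPKM (SD, n = 3), followed by MET at 43.4 ± 2.36, LMTK2 at 32.0 ± 2.59, EGFR at 28.6 ± 1.73, AXL at 22.8 ± 1.26 and MST1R at 20.9 ± 0.614 RPKM. The ranges of EPHA2 and MET did not overlap in siMock. Further down the order, ROR2 (8.50 ± 0.463 RPKM) and ERBB3 (8.48 ± 0.684 RPKM) did not differ beyond their spread. This order rests on the deposited gene lengths, such as 12521 bases for EGFR and 4159 for EPHA2. Without division by length, the siMock means were 358 CPM for EGFR, 306 for MET, 293 for LMTK2 and 203 for EPHA2. In siFUBP1, MET (67.7 ± 3.49 RPKM) and EPHA2 (65.4 ± 7.88 RPKM) overlapped at the top, EGFR stood at 49.7 ± 2.26 and AXL at 39.2 ± 1.66 RPKM, and LMTK2 came after these at 26.0 ± 0.536 RPKM. The RPKM of all 52 receptors summed to 298.8, 304.6 and 298.5 in siMock and to 346.2, 363.8 and 343.1 in siFUBP1. Every siFUBP1 sum lay above every siMock sum. The share of EGFR in the sum was 9.51% ± 0.592 in siMock and 14.2% ± 0.274 in siFUBP1, and that of DDR1 was 3.91% ± 0.331 and 1.45% ± 0.114.

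**Figure D1:**
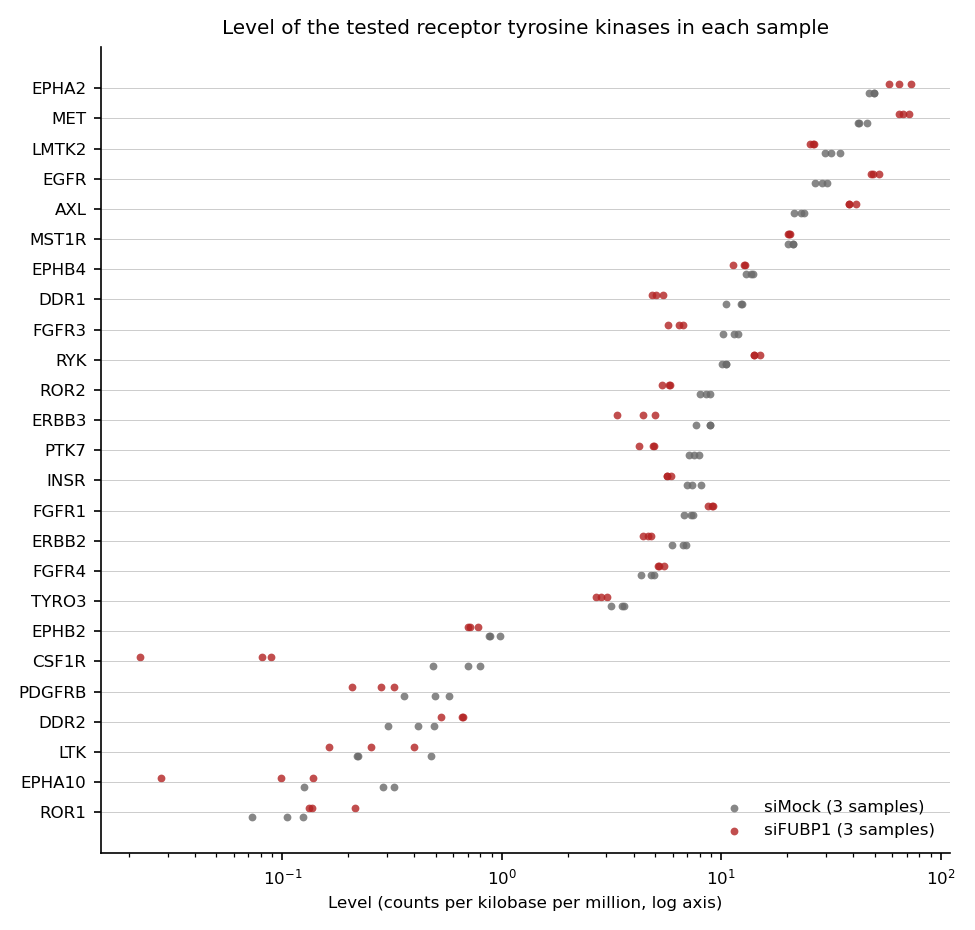
Level of each of the 25 tested receptors in each sample, as RPKM on a log axis, with grey points for the 3 siMock and red points for the 3 siFUBP1 samples. Genes are ordered by their siMock mean. EPHA2, MET, EGFR and AXL lie to the right in siFUBP1, and DDR1, FGFR3, ERBB3 and CSF1R to the left.

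The comparison of siFUBP1 with siMock asks which receptors changed with the loss of FUBP1. A gene was called where its adjusted p was below 0.05 and its absolute log2 fold change above 1, and "rose" or "fell" is used for an adjusted p below 0.05 at any size. No receptor was called higher, and 3 of 25 (12.0%) were called lower, which were CSF1R, EPHA10 and DDR1. Over all 16116 tested genes 8.16% were called higher and 9.13% lower. By the adjusted p alone, 7 receptors rose (28.0%) and 13 fell (52%), against 30.1% of all tested genes higher and 30.1% lower. EGFR, AXL, MET, DDR2, RYK, EPHA2 and FGFR1 rose, and LMTK2, DDR1, FGFR3, ROR2, ERBB3, PTK7, INSR, ERBB2, TYRO3, EPHB2, CSF1R, PDGFRB and EPHA10 fell. The siMock and siFUBP1 values did not overlap for 22 of the 25 receptors (88.0%), compared with 63.9% of all tested genes. The tested receptors had a median log2 fold change of -0.27 and a median absolute change of 0.58, while the medians of the whole table were 0.002 and 0.44. EPHA5, an ephrin-A class receptor with 0, 4 and 1 counts in siMock and 6, 11 and 8 in siFUBP1, was called higher only when the filter on low counts was dropped.

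**Figure D2:**
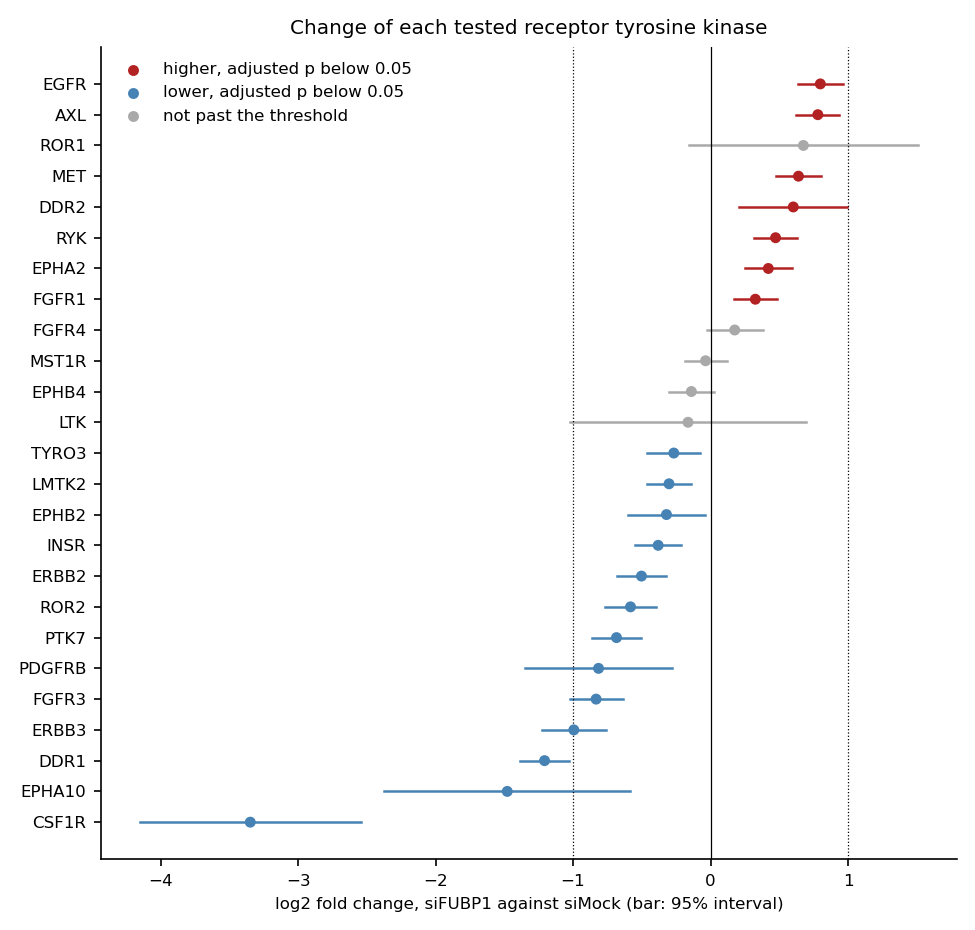
log2 fold change of siFUBP1 against siMock for each tested receptor, with its 95% interval as a bar. Red marks the 7 receptors that rose, blue the 13 that fell and grey the 5 past no threshold, and the dotted lines stand at -1 and 1. The intervals of CSF1R and DDR1 lie wholly below -1, and that of EPHA10 crosses it.

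The members of the EGF receptor family moved in opposite directions. EGFR (chr7:55019021-55211628, + strand, GRCh38), which binds EGF, amphiregulin and epiregulin, had 5482, 6098 and 5923 counts in siMock and 10145, 11357 and 10706 in siFUBP1. Every siFUBP1 sample lay far above every siMock sample. EGFR rose 1.74-fold (log2 fold change 0.80, SE 0.0793, adjusted p = 2.55e-09). ERBB3 (chr12:56076799-56103505, + strand), a neuregulin receptor with an impaired kinase that relies on its partner, had 1134, 1365 and 1250 counts in siMock and 673, 527 and 788 in siFUBP1. The groups were well apart, and the fall of 1.99-fold (log2 fold change -0.99, SE 0.112, adjusted p = 1.38e-07) missed the size threshold narrowly. ERBB3 was called lower in 4 of the 17 alternatives. These were the replicate block and the fits without siMock replicate 1, without siFUBP1 replicate 1 and without siFUBP1 replicate 3. Its log2 fold change moved both ways, from -1.13 without siFUBP1 replicate 3 to -0.844 without siFUBP1 replicate 2. With GC and length offsets it was -0.887. ERBB2 (chr17:39687914-39730426, + strand), the partner with no known ligand, had 1123, 1209 and 964 counts in siMock and 835, 827 and 791 in siFUBP1, and fell 1.42-fold (log2 fold change -0.50, SE 0.0853, adjusted p = 1.41e-05). The level of EGFR was 3.38 ± 0.137 times that of ERBB3 in siMock and 12.1 ± 3.06 times in siFUBP1, and the lowest siFUBP1 ratio, 9.81, exceeded the highest siMock ratio, 3.49. Exons of EGFR share 186 bases with the antisense gene EGFR-AS1 and those of ERBB2 share 571 bases with MIEN1 on the other strand, and the sources do not state whether reads were counted by strand.

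MET (chr7:116672390-116798386, + strand), the receptor of hepatocyte growth factor, had 4802, 5071 and 5072 counts in siMock and 7664, 8210 and 8774 in siFUBP1. Every siFUBP1 sample was higher, and MET rose 1.56-fold (log2 fold change 0.64, SE 0.0783, adjusted p = 9.53e-08). MST1R, its relative that binds macrophage-stimulating protein, had 1811, 1799 and 1746 counts in siMock and 1801, 1875 and 1847 in siFUBP1. Its groups overlapped, and its log2 fold change of -0.04 had a 95% interval from -0.19 to 0.12 (adjusted p = 0.697). The sign for MST1R flipped with upper-quartile scaling, with library size alone and with GC and length offsets.

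AXL and TYRO3, receptors for GAS6 and protein S, also went apart. AXL (chr19:41219203-41261766, + strand) had 2003, 1873 and 1867 counts in siMock and 3326, 3673 and 3438 in siFUBP1, a rise of 1.72-fold (log2 fold change 0.78, SE 0.0766, adjusted p = 2.11e-09). TYRO3 had 631, 673 and 538 counts in siMock and 560, 513 and 541 in siFUBP1, so that the raw counts of the groups overlapped while the values scaled for library size did not overlap. TYRO3 fell slightly (log2 fold change -0.27, SE 0.0933, adjusted p = 0.0158), and this was lost in 6 of the 17 alternatives, among them GC and length offsets (adjusted p = 0.335), without siMock replicate 2 and without siFUBP1 replicate 2. The level of AXL was 6.67 ± 0.732 times that of TYRO3 in siMock and 13.8 ± 1.32 times in siFUBP1. MERTK, the remaining member of this family, had at most 5 counts in a sample.

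The collagen receptors showed the same split at very different levels. DDR1 (chr6:30876421-30900156, + strand), the form typical of epithelial cells, had 1835, 1929 and 1502 counts in siMock and 834, 769 and 800 in siFUBP1. All siFUBP1 samples lay far below siMock, and DDR1 fell 2.31-fold (log2 fold change -1.21, SE 0.0858, adjusted p = 4.96e-12). With GC and length offsets the change was -0.92, still past the adjusted p but short of the size threshold. DDR2 (chr1:162631373-162787400, + strand), the form typical of mesenchymal cells, had 73, 90 and 51 counts in siMock and 119, 124 and 99 in siFUBP1. It rose 1.52-fold (log2 fold change 0.60, SE 0.191, adjusted p = 0.00836), but its adjusted p was 0.0666 without siMock replicate 3 and 0.0606 with limma on log2(FPKM + 0.1). The level of DDR2 was 3.41% ± 0.541 of that of DDR1 in siMock and 12.1% ± 1.59 in siFUBP1.

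FGF receptors were split as well. FGFR1, the form common in mesenchymal cells, had 1672, 1716 and 1467 counts in siMock and 2141, 2177 and 2105 in siFUBP1, and rose 1.25-fold (log2 fold change 0.33, SE 0.0757, adjusted p = 5.78e-04). FGFR3 (chr4:1793293-1808872, + strand), a brake on bone growth in the growth plate, had 947, 938 and 774 counts in siMock and 551, 483 and 541 in siFUBP1, and fell 1.78-fold (log2 fold change -0.83, SE 0.0934, adjusted p = 2.25e-08). The ratio of the FGFR1 level to the FGFR3 level passed from 0.641 ± 0.0227 in siMock to 1.43 ± 0.125 in siFUBP1, and thus from below 1 to above 1 in every sample. The crossing of 1 rests on the division by gene length (13842 bases for FGFR1 and 4848 for FGFR3). In raw counts FGFR1 exceeded FGFR3 in every siMock sample as well. FGFR4 had 390, 392 and 324 counts in siMock and 420, 461 and 438 in siFUBP1, with a log2 fold change of 0.18 (95% interval -0.03 to 0.38, adjusted p = 0.132).

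CSF1R (chr5:150053291-150113372, - strand), the receptor of macrophage colony-stimulating factor and best known from monocytes and osteoclasts, showed the greatest fold difference of the 25 receptors but was scarce. It had 59, 70 and 39 counts in siMock and 7, 2 and 8 in siFUBP1, levels of 0.662 ± 0.161 and 0.0639 ± 0.0362 RPKM. Every siFUBP1 sample lay far below every siMock sample. The fall was 10.2-fold (log2 fold change -3.35, 95% interval -4.15 to -2.55, adjusted p = 4.30e-08). Of the 4 haematopoietic markers, none of which had enough counts to be tested, the monocyte marker CD14 was the most abundant, with 8, 16 and 6 counts in siMock and 14, 2 and 4 in siFUBP1. SPI1, a myeloid transcription factor, had 4, 5 and 6 counts in siMock and 2, 1 and 1 in siFUBP1, and PTPRC had 1, 1 and 2 counts and 0 in each siFUBP1 sample, so that both were lower without overlap, as CSF1R was. CD68 had at most 2 counts in a sample. Their part in the fall of CSF1R was not tested. On the log2(FPKM + 1) scale, which compresses such low levels, the change of CSF1R was -0.63 and no longer passed the size threshold. PDGFRB, the receptor of PDGF-B whose gene lies beside CSF1R on the same strand, had 67, 60 and 40 counts in siMock and 25, 40 and 35 in siFUBP1. The lowest siMock count equalled the highest siFUBP1 count, although the scaled values did not overlap. PDGFRB fell 1.76-fold (log2 fold change -0.81, SE 0.260, adjusted p = 0.00871), and its adjusted p was 0.0547 without siMock replicate 1, 0.0627 without siFUBP1 replicate 1 and 0.0534 with GC and length offsets. The other three receptors of this class, PDGFRA, KIT and FLT3, had at most 2 counts in a sample.

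An siRNA can lower transcripts other than its target through its seed, guide bases 2 to 8, so the receptors were searched for matches in their 3′ untranslated regions. The study designed 3 siRNAs against FUBP1, and which of them was used for sequencing is not stated. Their guide strands are given here with the seed in capitals.
RNAi#1 guide: uAAACUGAaugcgaacacc
RNAi#2 guide: uAAGAGGUuugucagcacc
RNAi#3 guide: uUUCUUCUaugaguugccg
An 8mer site pairs with the whole seed and has an A after it (TCAGTTTA, ACCTCTTA and AGAAGAAA for the 3 guides, read on the transcript strand). Such a site was found for RNAi#1 in 3 of the 25 tested receptors (12.0%), against 4.62% of 12584 tested genes with an annotated region. The shares were 2 of 25 (8%) against 2.40% for RNAi#2, and 3 of 25 (12.0%) against 11.9% for RNAi#3. For sites that pair with the seed but need no A after it, the shares were 20% against 20.8% for RNAi#1, 28% against 12.7% for RNAi#2 and 20% against 20.2% for RNAi#3. The 8mer sites of receptors that fell and of EGFR, which rose, are shown with the match in capitals. They are from GENCODE 29 transcripts on GRCh38 and mark where a seed match and a change coincide or do not. The sites of DDR2 and FGFR1, which also rose, are not shown.
CSF1R with RNAi#2, chr5:150053556-150053563, - strand: aatctcacaggACCTCTTAgtctctgccct
TYRO3 with RNAi#2, chr15:41582071-41582078, + strand: cctctatcctgACCTCTTAacaccatggat
TYRO3 with RNAi#1, chr15:41578478-41578485, + strand: ccagcctggcaTCAGTTTAggccttggctt
LMTK2 with RNAi#1, chr7:98209502-98209509, + strand: tcaatgaacttTCAGTTTAaattgtgtaca
PDGFRB with RNAi#3, chr5:150115221-150115228, - strand: ttgcctcatccAGAAGAAAgccagtctcct
EGFR with RNAi#3, chr7:55206236-55206243, + strand: ttcctgggcaaAGAAGAAAcggaggggatg
CSF1R and TYRO3 both held an RNAi#2 site, and their log2 fold changes were -3.35 and -0.27. LMTK2 and TYRO3 held an RNAi#1 site and fell, while FGFR1, which also holds one, rose. EGFR rose with 1 RNAi#3 site and DDR2 with 2, and PDGFRB fell with 1. A match describes letters in the annotated transcript, and any effect of it on these counts was not tested.

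Ephrin receptors, which read ligands on adjacent cells, were led by EPHA2 (chr1:16124337-16156087, - strand). It had 3367, 3506 and 3075 counts in siMock and 4544, 5309 and 4203 in siFUBP1, all siFUBP1 samples being higher, and rose 1.34-fold (log2 fold change 0.42, SE 0.0835, adjusted p = 1.04e-04). EPHA10 (chr1:37713880-37765133, - strand), a receptor with a kinase-like domain held to be inactive, had 43, 40 and 16 counts in siMock and 19, 14 and 4 in siFUBP1. Its groups overlapped, since siMock replicate 3 lay below siFUBP1 replicate 1. EPHA10 was called lower (2.79-fold, log2 fold change -1.48, SE 0.433, adjusted p = 0.00512), and limma on log2(FPKM + 1) gave an adjusted p of 0.0522. With limma on log2(FPKM + 0.1) the change was -0.86 (adjusted p = 0.0427), short of the size threshold, so the call was lost there too. EPHB4, the receptor of ephrin-B2, had 1468, 1495 and 1310 counts in siMock and 1387, 1437 and 1271 in siFUBP1, with a log2 fold change of -0.14 (95% interval -0.30 to 0.03, adjusted p = 0.137) that was 0.15 with GC and length offsets. EPHB2, with 180, 209 and 171 counts in siMock and 165, 155 and 153 in siFUBP1, fell at the edge of the threshold (log2 fold change -0.32, SE 0.135, adjusted p = 0.0426). It missed the threshold in 12 of the 17 alternatives tried. EPHB3 and EPHA1 had at most 10 counts in a sample.

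Among the receptors that bind WNT proteins or act in WNT signalling, RYK rose and 2 fell. RYK (chr3:134065303-134250744, - strand), which has an inactive kinase, had 1325, 1432 and 1316 counts in siMock and 1908, 2092 and 1975 in siFUBP1, and rose 1.39-fold (log2 fold change 0.47, SE 0.0757, adjusted p = 6.12e-06). ROR2, a WNT5A receptor needed for skeletal growth, had 813, 882 and 727 counts in siMock and 571, 544 and 592 in siFUBP1, and fell 1.5-fold (log2 fold change -0.58, SE 0.0887, adjusted p = 3.08e-06). PTK7, a pseudokinase of planar cell polarity, had 1167, 1153 and 1008 counts in siMock and 749, 775 and 662 in siFUBP1, and fell 1.61-fold (log2 fold change -0.68, SE 0.0883, adjusted p = 2.32e-07). In all of these the groups were separate. ROR1, the close relative of ROR2, had 8, 12 and 13 counts in siMock and 15, 25 and 16 in siFUBP1, with a log2 fold change of 0.68 (95% interval -0.16 to 1.51, adjusted p = 0.155).

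INSR, the insulin receptor, had 1192, 1434 and 1200 counts in siMock and 997, 1026 and 1078 in siFUBP1, and fell 1.3-fold (log2 fold change -0.38, SE 0.0820, adjusted p = 2.64e-04). LMTK2, a lemur tail kinase, is included because it is on the list used here, and its kinase type was not examined. It had 4418, 5399 and 4518 counts in siMock and 4031, 4189 and 4050 in siFUBP1, and fell 1.23-fold (log2 fold change -0.30, SE 0.0780, adjusted p = 0.00164). Both were lower in each siFUBP1 sample than in each siMock sample. LTK, the relative of ALK, had 27, 13 and 12 counts in siMock and 15, 24 and 10 in siFUBP1, and a log2 fold change of -0.16 whose interval ran from -1.02 to 0.69 (adjusted p = 0.755).

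Base composition varied among the receptors and did not follow the direction of change alone. The median GC content of the longest annotated transcript was 47.5% for the 7 that rose (36.8% to 60.3%), 57.3% for the 13 that fell (49.0% to 63.2%), 60.8% for the 5 past no threshold and 48.9% for all tested genes. Over the 12356 tested genes whose counts averaged 50 or more, the log2 fold change and the GC content had a Spearman rho of -0.24, given as a description across genes that share the same 6 libraries. With offsets that removed the trend of counts with GC content and length, 17 of the 20 receptors that rose or fell remained past the adjusted p in the same direction. TYRO3, EPHB2 and PDGFRB were lost, and MST1R, EPHB4 and FGFR4 passed as higher, which gave 10 higher and 10 lower. EGFR stood at 0.915, CSF1R at -3.15 and EPHA10 at -1.13 under these offsets. Others moved by over 1.5 times on the log2 scale. LMTK2 went from -0.30 to -0.14 (adjusted p = 0.0464), ERBB2 from -0.50 to -0.29, FGFR3 from -0.83 to -0.53 and PTK7 from -0.68 to -0.44. EPHA2 went from 0.42 to 0.67 and FGFR4 from 0.18 to 0.45, and the values of the lost TYRO3 and EPHB2 were -0.09 and -0.05.

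**Figure D3:**
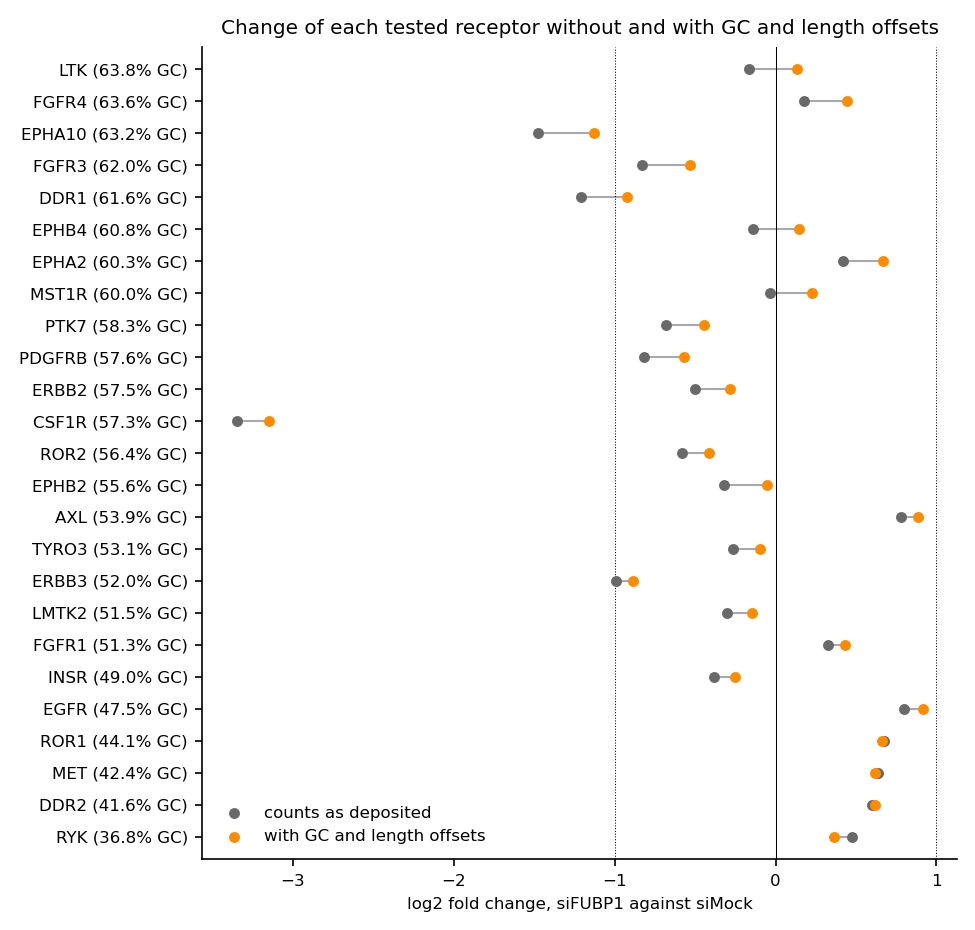
log2 fold change of each tested receptor from the counts as deposited (grey) and with GC and length offsets (orange), ordered from the most GC-poor transcript (RYK, 36.8%) at the bottom to the most GC-rich (LTK, 63.8%) at the top. The GC-rich receptors move to the right, DDR1 from -1.21 to -0.92, and EGFR, AXL, MET and DDR2 stay above 0.

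Called ligands of the receptors went both ways. Of 73 ligand genes, 34 were tested, 8 of which were called higher (23.5%) and 5 lower (14.7%), beside 8.16% and 9.13% of all tested genes. By the adjusted p alone 10 rose and 14 fell, beside 30.1% in each direction. Their median log2 fold change was -0.35. Among the EGF family ligands, AREG, EREG and NRG1 were called higher. AREG (amphiregulin) had 63, 35 and 71 counts in siMock and 581, 774 and 501 in siFUBP1 (log2 fold change 3.37, SE 0.252, adjusted p = 1.48e-06). EREG (epiregulin) had 80, 55 and 63 counts and 178, 221 and 200 counts (log2 fold change 1.51, SE 0.168, adjusted p = 1.93e-08). NRG1 (neuregulin 1), a ligand of ERBB3, had 4, 12 and 10 counts and 88, 88 and 67 counts (log2 fold change 3.13, SE 0.317, adjusted p = 3.78e-09). Each of these 3 genes was higher in every siFUBP1 sample than in any siMock sample. Among other EGFR ligands, the log2 fold change was 0.10 for TGFA (adjusted p = 0.478) and -0.04 for HBEGF (adjusted p = 0.918).

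VEGFA, an angiogenic factor whose receptors KDR and FLT1 had at most 1 count here, rose from 2126, 1959 and 2054 counts to 4648, 5508 and 4857 (log2 fold change 1.21, SE 0.0822, adjusted p = 2.17e-12), and VEGFD rose from 2, 2 and 9 to 22, 33 and 27 (log2 fold change 2.54, adjusted p = 7.51e-05, and 3.64 on the log2 scale without siMock replicate 3). CSF1, the ligand of CSF1R, rose from 304, 436 and 291 counts to 789, 945 and 675 (log2 fold change 1.15, SE 0.135, adjusted p = 9.73e-07), while its receptor fell. Higher calls were also made for ANGPT4, with 0 counts in every siMock sample and 12, 18 and 11 in siFUBP1, and for EFNB2, with 7, 13 and 7 counts against 14, 25 and 20 (log2 fold change 1.04, adjusted p = 0.0355). EFNB2 lost its call in 8 of the 16 alternatives in which it was fitted, 4 of them with 1 sample left out, where its adjusted p reached 0.158. PDGFA, which signals through PDGF receptors, fell from 2547, 2371 and 2155 counts to 968, 1059 and 1035 (log2 fold change -1.29, SE 0.0797, adjusted p = 3.27e-13). The other ligands called lower were EFNA2 (log2 fold change -2.09, adjusted p = 1.49e-04), NRTN (-1.59, adjusted p = 0.00679), FGF22 (-1.30, adjusted p = 1.16e-04) and MDK (-1.02, adjusted p = 0.00319). NRTN lost its call without siMock replicate 1 (adjusted p = 0.0625), and MDK, close to the size threshold, lost its call in 9 of the 16 alternatives in which it was fitted. Of the other ephrin-A ligands, EFNA1 and EFNA4 fell by 0.79 and 0.76 on the log2 scale (adjusted p = 5.72e-09 and 7.88e-05), and EFNA3 and EFNA5 had values of -0.07 and 0.18 (adjusted p = 0.773 and 0.549). GAS6 and PROS1, the ligands of AXL and TYRO3, fell by 0.90 and 0.35 on the log2 scale (adjusted p = 2.54e-09 and 4.91e-04).

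Of 6 tested co-receptors, 3 were called lower and none higher, with a median log2 fold change of -1.19, beside 9.13% and 8.16% of all tested genes. By the adjusted p alone 4 fell and 2 rose, beside 30.1% of all tested genes in each direction. NRP1, a VEGF and semaphorin co-receptor, rose from 317, 379 and 326 counts to 590, 706 and 542 (log2 fold change 0.77, SE 0.106, adjusted p = 7.18e-07), and FGFRL1, an FGF receptor without a kinase domain, rose by 0.24 on the log2 scale (adjusted p = 0.0166). SORT1 (sortilin), a sorting receptor for neurotrophins, fell from 1842, 1979 and 1956 counts to 614, 635 and 729 (log2 fold change -1.63, SE 0.0849, adjusted p = 1.23e-14). LRP4, the agrin receptor that works with MUSK, fell from 158, 124 and 129 counts to 48, 34 and 37 (log2 fold change -1.86, adjusted p = 9.16e-09). NRP2, which binds VEGFC and semaphorins, fell from 110, 179 and 127 counts to 42, 55 and 56 (log2 fold change -1.52, adjusted p = 2.51e-07).

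The shared cascade was tested for 39 genes. Of these adaptor, RAS, RAF, ERK and PI3K pathway genes, 1 was called higher and 2 lower, with a median log2 fold change of -0.10, beside 8.16% and 9.13% of all tested genes. By the adjusted p alone 4 rose and 15 fell, beside 30.1% of all tested genes in each direction. IRS1, the docking protein of the insulin receptor, rose from 194, 157 and 135 counts to 591, 624 and 529 (log2 fold change 1.76, SE 0.121, adjusted p = 2.57e-12). SHC2, a neuronal SHC adaptor, fell from 88, 79 and 45 counts to 6, 10 and 5 (log2 fold change -3.39, adjusted p = 4.96e-09), and KSR1, a scaffold of the RAF cascade, fell from 498, 536 and 472 to 214, 230 and 245 (log2 fold change -1.21, adjusted p = 1.63e-10). GRB2 and SOS1, the link to RAS, had values of -0.01 and -0.04 (adjusted p = 0.943 and 0.690).

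Negative regulators lay mostly above 0. Of 26 tested, 5 were called higher (19.2%) and 1 lower (3.85%), and 16 rose and 4 fell by the adjusted p alone, with a median log2 fold change of 0.51. The shares over all tested genes were 8.16% and 9.13% by the call and 30.1% in each direction by the adjusted p alone. GRB10, an inhibitor of insulin receptor signalling, rose from 93, 86 and 55 counts to 259, 365 and 275 (log2 fold change 1.86, SE 0.168, adjusted p = 5.92e-10). CBLB, a ubiquitin ligase that sends receptors to degradation, rose from 241, 265 and 260 to 736, 861 and 662 (log2 fold change 1.48, SE 0.107, adjusted p = 7.44e-12). In both genes each siFUBP1 sample lay far above siMock. DUSP6, a phosphatase of ERK, rose by 1.29 (adjusted p = 3.73e-07), SPRY2, a Sprouty inhibitor, by 1.21 (adjusted p = 5.35e-06), and ERRFI1, an inhibitor of EGFR kinase, by 1.07 on the log2 scale (adjusted p = 1.30e-05). ERRFI1 dropped below the size threshold with GC and length offsets, without siMock replicate 2 and without siFUBP1 replicate 2. SPRED3 fell from 70, 82 and 58 counts to 17, 26 and 31 (log2 fold change -1.58, adjusted p = 7.83e-06).

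Of 9 tested genes that are commonly read as output of ERK signalling, 4 were called higher and 1 lower, and 7 rose and 1 fell by the adjusted p alone. The called shares were 44.4% and 11.1%, against 8.16% and 9.13% of all tested genes, and by the adjusted p alone 30.1% of all tested genes rose and 30.1% fell. FOSL1, an AP-1 subunit, rose from 364, 387 and 231 counts to 2075, 2773 and 1917 (log2 fold change 2.71, SE 0.206, adjusted p = 1.62e-05). PHLDA1 rose from 443, 467 and 372 to 1298, 1694 and 1177 (log2 fold change 1.62, adjusted p = 6.52e-11). MYC, a known target of FUBP1, rose from 1389, 1305 and 1175 to 3176, 3968 and 3207 (log2 fold change 1.34, SE 0.0878, adjusted p = 1.05e-12). The study cites reports that FUBP1 can activate MYC in some cancer cells, and the direction here was the opposite. Whether the rise of MYC reflects ERK signalling or the loss of FUBP1 itself was not tested. ETV1, an ETS factor, rose by 1.88 on the log2 scale (adjusted p = 7.62e-05). CCND1, which encodes cyclin D1 and drives entry into the cell cycle, went the other way, from 3496, 3966 and 3226 counts to 783, 765 and 787 (log2 fold change -2.27, SE 0.0808, adjusted p = 1.22e-17). On the log2(FPKM + 1) scale the called genes NRG1, VEGFD, EREG, CSF1, EFNA2, NRTN, FGF22, MDK, NRP2, LRP4, SHC2, KSR1, SPRY2, SPRED3, ERRFI1, DUSP6, GRB10, ETV1, ANGPT4 and EFNB2 did not reach the call. The counts measure RNA, and receptor protein, phosphorylation and ERK activity were not analysed here.

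**Figure D4:**
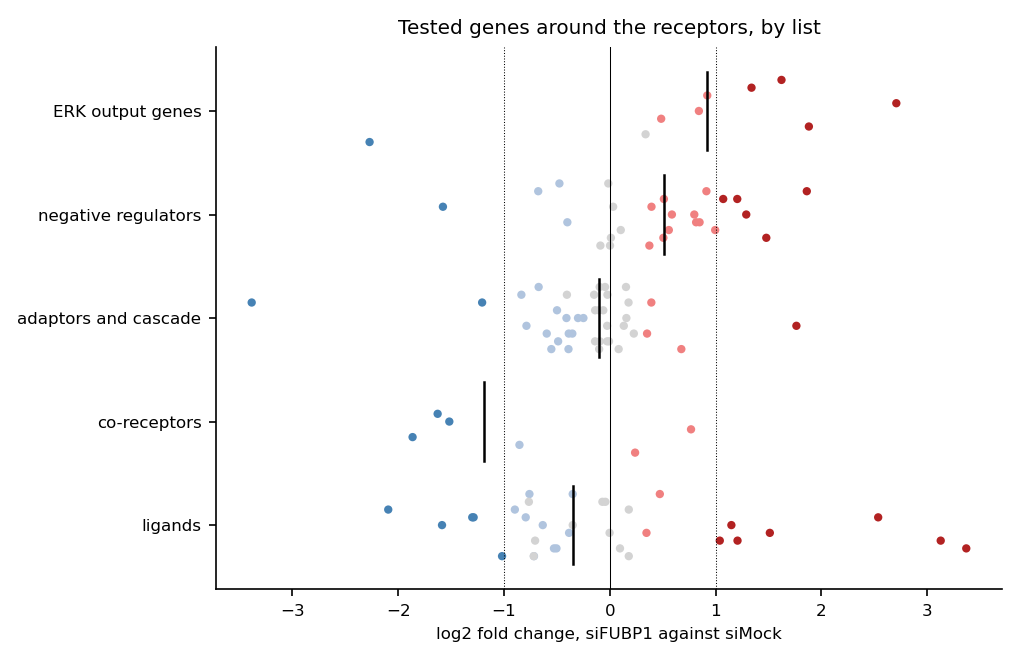
log2 fold change of siFUBP1 against siMock for every tested gene of the 5 lists, 1 point per gene, apart from ANGPT4, which had no counts in siMock. Dark red and dark blue mark called genes, pale colours an adjusted p below 0.05 alone and grey neither, black bars stand at each list's median and dotted lines at -1 and 1. Negative regulators (median 0.51) and ERK output genes (median 0.92) lie mainly to the right, co-receptors (median -1.19) and ligands (median -0.35) mainly to the left.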

How the data were processed

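RNA of 3 siMock and 3 siFUBP1 samples was sequenced by the authors. Per the labels' processing notes the tools were HISAT2 2.0.5, StringTie 1.3.3b, featureCounts 1.5.0-p3 and DESeq2 1.16.1, and the kit was NEBNext Ultra. The 1 deposited table held raw read counts per gene, which were used in the tests, and FPKM values, used in alternatives. It also held the authors' group means of normalised signal and the authors' log2 fold changes and p-values, which were not used. All 58735 gene positions equal GENCODE release 29 (GRCh38). Read strand in counting is not given in the sources used here. This limit also applies to called list genes that share exons with a gene on the other strand. DUSP6 shared 1875 of its 4632 exonic bases with AC024909.2, and EFNB2 shared 1313 of 5019 with AL138689.2.

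Samples were grouped by their transfection label. Counts of genes passing edgeR's expression filter (16116 genes) were fitted with edgeR 4.0.16 in R 4.3.3 (TMM scaling, robust quasi-likelihood F test), and p-values were adjusted over all tested genes by the Benjamini-Hochberg method. The common dispersion was 0.00684. SE is the log2 fold change divided by the root of F. RPKM were computed from the counts with TMM-scaled libraries. Alternatives used other scalings and filters, DESeq2 1.42.0, limma 3.58.1 on log2(FPKM + 1) and log2(FPKM + 0.1), GC and length offsets, a replicate block, and leaving out each sample. The edgeR, DESeq2 and limma fits were tested on simulated data. No 2 samples had identical counts, and replicates differed by more than sampling noise (chi-square per gene at least 5.87).

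The receptors and gene lists were chosen with earlier results of these data known. Named genes were all 52 receptors, FUBP1 and the called genes of each list. Of lists with more than 10 called genes, only the 5 largest changes each way among genes averaging 10 counts or more were named. Tested ligands of the called receptors CSF1R and EPHA10 were also named. The ligand list held no collagens, the ligands of DDR1, so none was named by this rule. EFNB2, ANGPT4, NRP1, FGFRL1, TGFA, HBEGF, GAS6, PROS1, GRB2 and SOS1 were named after their values were seen. No test over the receptors as a group was made. A planned description of protein sequences was not analysed here.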

Additional observations from a re-analysis of the deposited data

How the results depend on the processing

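Scaling, filter, tool and sample choices left most receptor results on their side of the thresholds. Over the whole table the balance of calls turned with the scaling. The main test called 1315 genes higher and 1472 lower, library size alone 1620 and 1229, and upper-quartile scaling 1440 and 1362. Genes called higher over the whole table numbered 731 with a mean of at least 50 counts, 803 with protein-coding genes only, 462 with limma on log2(FPKM + 1) and 4844 by the adjusted p alone, and genes called lower 931, with a mean of at least 50 counts, 588 with limma on log2(FPKM + 1) and 4851 by the adjusted p alone. The receptors called higher were 1 with no filter (EPHA5) and 7 by the adjusted p alone, and those called lower 1 with a mean of at least 50 counts, 1 with limma on log2(FPKM + 1) and 13 by the adjusted p alone. CSF1R and EPHA10 fall out of the 50-count filter by construction. Called genes of the 5 lists were 7 higher and 3 lower with limma on log2(FPKM + 1), 6 lower with the 50-count filter, and 39 higher and 38 lower by the adjusted p alone. Leaving out 1 sample gave 1280 to 1451 genes higher and 1475 to 1608 lower over the table, 0 to 0 receptors higher and 3 to 4 lower, 6 to 7 receptors higher and 11 to 13 lower by the adjusted p alone, and 18 to 21 list genes higher and 11 to 13 lower.

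Some small changes reversed, none of them past the threshold in the main test. MST1R was 0.00678 with upper-quartile scaling, 0.0614 with library size alone and 0.227 with GC and length offsets. EPHB4 was 0.146, LTK 0.136 and EFNA3 0.0883 with GC and length offsets, and EFNA3 was 0.0267 with library size alone. Without siMock replicate 1, LTK was 0.297 and EFNA3 0.0586, without siFUBP1 replicate 3 they were 0.0986 and 0.0320, and without siFUBP1 replicate 1 EFNA5 was -0.0426. Over the samples left out in turn, LTK ranged from -0.533 to 0.297, EFNA3 from -0.213 to 0.0586 and EFNA5 from -0.0426 to 0.396. Of other changes past no threshold, ROR1 was 0.421 without siFUBP1 replicate 2, EPHB4 -0.0806 without siFUBP1 replicate 3 and FGFR4 0.115 without siMock replicate 3. The cause was not tested. The replicate numbers did not pair the samples (correlations 0.0284, 0.0549 and 0.249 between same-numbered samples, and not every sample correlated best with its own number). With the replicate block, 1324 genes were called higher and 1469 lower, and 4 receptors lower, as ERBB3 reached -1.01. Depth limits the 27 receptors below the count filter, of which EPHA5 alone was called when the filter was dropped.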
